A study of Mus musculus with 157 samples.

Results

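The 10 genes Ccl5, Nkg7, Zbtb16, Klrb1c, Tbx21, Eomes, Ncr1, Gzma, Fcer1g and Il2rb mark natural killer (NK) cells, natural killer T (NKT) cells and other innate cytotoxic lymphocytes. They were chosen by their measured levels, since DN1 thymocytes and unsorted early tumours of this mouse series express them, so the height of their levels in those samples against other samples is a description and carries no test. The choice did not use differences between genotypes. All 10 were found among the 50686 genes of both count tables by their Ensembl identifiers. RNA was sequenced from 157 libraries of thymus and thymic lymphoma in 23 groups, 81 in an earlier run and 76 in a later run, and each run was treated on its own. Cdc20 activates the anaphase-promoting complex, and its AAA form cannot be bound by the checkpoint protein Mad2. Mice of the genotype Cdc20(D/AAA) were set against Cdc20(+/D) controls, and both carry the D allele.

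The earlier run held sorted RERT2 Cdc20(D/AAA) thymocytes at the double negative stages DN1 (n = 9), DN2 (1), DN3 (5) and DN4 (6) and the double positive stage DP (11). It also held early tumours of the same genotype, 5 sorted as DP and 7 unsorted. Its controls were RERT2 Cdc20(+/D) thymocytes, with 6 libraries at DN1, 8 each at DN2, DN3 and DN4, and 7 at DP. Every control library of this run had a lower number in its title than every D/AAA library. Genotype therefore cannot be told apart from library order in this run. The later run held tumours of the genotypes RERT2 Cdc20(D/AAA) (22), the same with p53(+/D) (10) or with MYCChr6 (3), LCK Cdc20(D/AAA) MYCChr6 (14), LCK Cdc20(+/D) MYCChr6 (4), CD4 Cdc20(D/AAA) MYCChr6 (2) and p53(-/-) (1). It also held non-tumoral thymus of RERT2 Cdc20(D/AAA) mice without (9) or with (3) MYCChr6 and of RERT2 Cdc20(+/D) mice without (6) or with (2) MYCChr6. RERT2, LCK and CD4 name the driver of each mouse line, and the labels do not spell out RERT2, D or MYCChr6. Tumours were unsorted unless the label names a population. Gene totals cannot show which Cdc20 allele was expressed, so the genotypes were taken from the labels. The labels do not say that libraries came from separate animals, so p-values measure only the spread between these libraries.

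NK and NKT cells kill or activate other cells without prior priming by antigen, through granules that carry granzymes and through fast release of cytokines and chemokines. Their development depends on the transcription factors T-bet (Tbx21), Eomes and, for NKT cells, PLZF (Zbtb16), and on signals through the IL-2 and IL-15 receptors, whose β chain is encoded by Il2rb. In the thymus the DN1 gate holds early T cell progenitors together with other cells that lack CD4 and CD8, NK cells among them.

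The 10 genes lie on 7 chromosomes of GRCm38 (positions from GENCODE M21) and were assigned to 4 roles. The first role is recognition. Klrb1c (chr6:128778485-128789215, minus strand) encodes the lectin-like receptor NK1.1, Ncr1 (chr7:4337724-4345164, plus strand) the activating receptor NKp46, and Fcer1g (chr1:171229572-171234365, minus strand) the signalling adaptor of Fc receptors and of NKp46, which myeloid cells also use. Il2rb (chr15:78479256-78495271, minus strand) is the cytokine receptor. The effectors are Nkg7 (chr7:43437073-43438249, plus strand), a granule membrane protein, Gzma (chr13:113093825-113100981, minus strand), the protease granzyme A, and Ccl5 (chr11:83525778-83530518, minus strand), the chemokine RANTES. The transcription factors are Tbx21 (chr11:97098071-97115331, minus strand), Eomes (chr9:118478212-118486132, plus strand) and Zbtb16 (chr9:48654297-48836222, minus strand). Exons of Eomes overlap the antisense gene Gm33460, and exons of Klrb1c overlap the same-strand gene Gm44511, so the counts of both are uncertain.

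Promoter windows from 250 bases before to 50 bases after the start site were available for 7 of the 10 genes in RefSeq (GRCm38.p6). They were searched on both strands for the motif of Runx factors (TGTGGT), the motif of T-box factors (AGGTGTGA) and other motifs of lymphocyte regulators that are spelled out below. The 5 windows shown hold the Runx motif, which is found in 16.8% of all 32851 windows. Capitals mark this motif in either orientation, and in Nkg7 also the T-box motif. Each is written 5′ to 3′ on the strand of its gene.
Nkg7: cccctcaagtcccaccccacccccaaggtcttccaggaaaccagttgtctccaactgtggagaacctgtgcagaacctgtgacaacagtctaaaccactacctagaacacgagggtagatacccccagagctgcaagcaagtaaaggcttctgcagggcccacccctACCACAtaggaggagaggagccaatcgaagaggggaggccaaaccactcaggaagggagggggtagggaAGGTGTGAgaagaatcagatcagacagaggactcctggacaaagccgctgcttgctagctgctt
Gzma: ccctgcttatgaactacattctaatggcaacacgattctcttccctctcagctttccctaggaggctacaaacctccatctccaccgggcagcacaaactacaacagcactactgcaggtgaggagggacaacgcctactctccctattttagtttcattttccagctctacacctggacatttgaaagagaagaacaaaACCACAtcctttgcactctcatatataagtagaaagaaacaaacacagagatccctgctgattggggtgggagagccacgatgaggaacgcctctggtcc
Klrb1c: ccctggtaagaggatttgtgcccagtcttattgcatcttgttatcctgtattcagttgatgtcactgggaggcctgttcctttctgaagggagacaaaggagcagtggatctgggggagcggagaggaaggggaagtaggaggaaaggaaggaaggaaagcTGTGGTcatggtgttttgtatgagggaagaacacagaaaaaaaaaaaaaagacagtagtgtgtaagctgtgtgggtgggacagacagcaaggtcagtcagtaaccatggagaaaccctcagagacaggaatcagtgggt
Ncr1: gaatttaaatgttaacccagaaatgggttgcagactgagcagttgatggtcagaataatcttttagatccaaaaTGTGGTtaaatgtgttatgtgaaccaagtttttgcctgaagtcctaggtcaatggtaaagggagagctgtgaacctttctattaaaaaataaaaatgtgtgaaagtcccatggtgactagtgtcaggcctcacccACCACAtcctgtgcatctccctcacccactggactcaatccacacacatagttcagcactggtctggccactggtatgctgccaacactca
Fcer1g: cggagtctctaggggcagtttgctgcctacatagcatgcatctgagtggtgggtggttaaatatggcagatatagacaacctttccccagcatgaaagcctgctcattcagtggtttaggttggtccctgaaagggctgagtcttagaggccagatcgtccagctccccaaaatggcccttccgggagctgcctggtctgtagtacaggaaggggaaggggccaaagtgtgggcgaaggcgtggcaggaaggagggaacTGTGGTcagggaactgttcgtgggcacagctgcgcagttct
The windows are chr7:43436888-43437187 (Nkg7, plus strand), chr13:113100932-113101231 (Gzma, minus strand), chr6:128788592-128788891 (Klrb1c, minus strand), chr7:4337465-4337764 (Ncr1, plus strand, the first of 2 windows) and chr1:171234300-171234599 (Fcer1g, minus strand). Of the 7 windows, the T-box motif was in that of Nkg7 alone, at -14 from the start site, and in 1.28% of all windows. Nkg7 also held the Runx motif at -83 and the STAT motif TTCNNNGAA, which 8.3% of windows hold. Ncr1 held the Runx motif at -176 and -41, Klrb1c at -89, Gzma at -50 and Fcer1g at 9. Of the motifs of Ets factors, CCGGAA was in Fcer1g and in 14.9% of windows. The other, AGGAAGT, was in Tbx21 and in 9.35% of windows. Of the E-box motifs, CAGCTG was in Fcer1g and Tbx21 and in 16.3% of windows. The other, CAGGTG, which can share bases with the T-box motif, was in Gzma and Tbx21 and in 20.2% of windows. The motif of GATA factors, AGATAA, was in none of the 7 windows and in 11.2% of all. A match is a description of the letters only.

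Library totals ran between 21199 and 11595463 counts in the earlier run (median 6972708) and between 1708619 and 8009572 in the later run (median 5103324). In the later run 30.1% to 55.95% of counts came from the ribosomal RNA sequence gene CT010467.1. Levels are CPM, a gene's counts scaled to a common library total (adjusted by TMM factors), and marker levels are summed over marker lists. The sorted labels were set against these lists. Summed DP markers had a median of 12333 CPM in +/D DP cells and 159 CPM in +/D DN1 cells, and summed DN3 markers a median of 2538 CPM in +/D DN3 cells. The DN1 D/AAA library of replicate 8 had the lowest total of the run (21199 counts) and summed DP markers of 2503 CPM, against a median of 114 CPM over the 9 libraries of its group, so the lowest DN1 D/AAA values and the DN1 comparison are given with and without it. Of the 7 libraries labelled unsorted early tumours, replicates 2 and 3 stood apart from the other 5, and values are given with and without them. The other 5 had marker levels like those of sorted DN1 cells, which their label does not name, and whether the label holds was not tested. All values of unsorted early tumours are therefore those of libraries so labelled.

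At DN1 every member had a median above 0 in both genotypes. Per kilobase of exon, which allows levels to be compared between genes, the order of the +/D medians was Nkg7 (2607 CPM per kilobase), Ccl5 (1551), Fcer1g (429.7), Il2rb (314), Gzma (281), Klrb1c (162), Tbx21 (148), Ncr1 (102), Zbtb16 (19.95) and Eomes (4.93). The granule gene Nkg7 and the chemokine gene Ccl5 thus led the DN1 profile, and Eomes was at the bottom. In CPM, Nkg7 ran from 93.9 (lowest) over 2377 (median) to 2809 (highest) in DN1 D/AAA cells and from 1815 over 2383 to 2727 in DN1 +/D cells. Ccl5 ran from 31.3 over 2308 to 3643 CPM in D/AAA cells and from 914 over 1489 to 1749 CPM in +/D cells. The groups overlapped for both genes, and the lowest D/AAA value in each was that of replicate 8, without which the lowest were 1434 CPM for Nkg7 and 934 CPM for Ccl5. Gzma had 0, 287 and 506 CPM (lowest, median, highest) in D/AAA cells and 149.7, 283 and 343 CPM in +/D cells, and without replicate 8 the lowest D/AAA value was 132 CPM.

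Most receptors and regulators overlapped between the genotypes at DN1 as well. Il2rb had 438, 1357 and 1701 CPM (lowest, median, highest) in D/AAA cells and 1118, 1346 and 2015 CPM in +/D cells. Klrb1c had 0, 379 and 614 CPM in D/AAA cells and 312, 479.8 and 601 CPM in +/D cells, and Fcer1g 0, 283 and 508 CPM in D/AAA cells and 288, 376 and 444 CPM in +/D cells. The lowest value was again replicate 8 in each, and without it the lowest D/AAA values were 638 CPM for Il2rb, 266 CPM for Klrb1c and 225 CPM for Fcer1g. Tbx21 had 0, 396 and 451 CPM in D/AAA cells and 336, 368 and 443 CPM in +/D cells. Zbtb16 had 0, 71.6 and 108 CPM in D/AAA cells and 70.5, 105 and 149.8 CPM in +/D cells. Without replicate 8 the lowest D/AAA values were 267 CPM for Tbx21 and 35.4 CPM for Zbtb16. Ncr1 and Eomes were the 2 of 10 members whose D/AAA libraries all lay below every +/D library, as did 0.0611% of the 14724 genes that averaged 1 CPM or more in either genotype. Ncr1 had 0, 60.1 and 146 CPM in D/AAA cells and 152, 157 and 189 CPM in +/D cells. Eomes had 0, 8.13 and 15.7 CPM in D/AAA cells and 17.8, 20.5 and 24.2 CPM in +/D cells. Without replicate 8 the lowest D/AAA values were 32.6 CPM for Ncr1 and 1.67 CPM for Eomes.

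In the comparison of genotypes at DN1, edgeR's quasi-likelihood test with Benjamini-Hochberg adjustment called 0 of the 10 members and 0 of 12822 genes (0% of genes tested), and DESeq2 and limma voom also called 0 members. Without the shallow replicate 8 edgeR called 0 members and 1 gene. At an unadjusted p under 0.05 there were 353 genes, 3 of them members. These were Ncr1 with a log2 fold change of -1.003 ± 0.30 (SE), Eomes with -1.15 ± 0.39 and Zbtb16 with -0.61 ± 0.25, each with an adjusted p of 0.999987. Without replicate 8 the log2 fold changes were -0.98 for Ncr1, -1.14 for Eomes and -0.58 for Zbtb16. The difference in these 3 genes did not pass the test. In simulated counts for this comparison 26.8% of 2-fold changes were called, so the test can miss changes of this size. In bulk RNA, fewer cells of a type in the gate and less RNA per cell cannot be told apart. Summed NK markers had 31.3, 1925 and 2669.9 CPM (lowest, median, highest) in D/AAA cells and 1722, 2149 and 2277 CPM in +/D cells, and without replicate 8 the lowest D/AAA value was 1567 CPM.

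**Figure D1:**
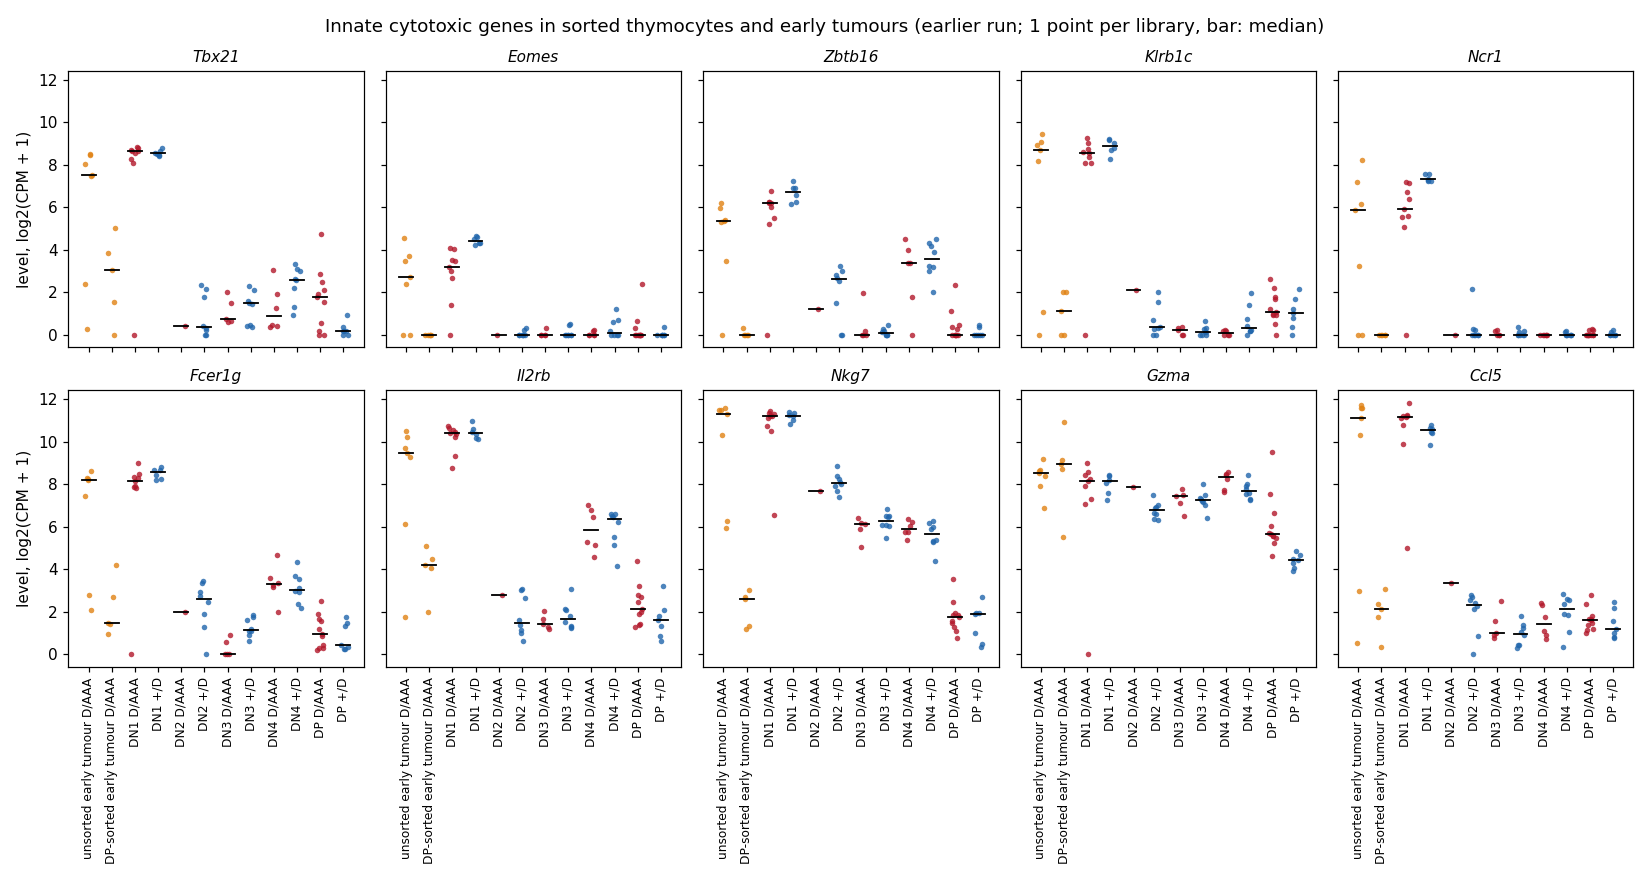
Level of the 10 members in sorted thymocytes and early tumours of the earlier run, as log2(CPM + 1) on the vertical axis, by group on the horizontal axis. Each point is 1 library and each bar a group median, and the medians of the DN1 groups and of the unsorted early tumours are the highest for every member except Gzma. Gzma has medians of 487 CPM in DP-sorted early tumours, 323 CPM in D/AAA DN4 cells and 205 CPM in +/D DN4 cells. Its DN1 medians are 287 CPM (D/AAA) and 283 CPM (+/D).

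After DN1 most members fell to a trace, and each did so with its own pattern. The values are for RERT2 +/D cells and chose the members, so they carry no test. Nkg7 had medians of 2383 CPM at DN1, 264 at DN2, 77.1 at DN3, 49.7 at DN4 and 2.76 at DP, and the mean at DN1 was 8.40 times that at DN2, 30.3 times that at DN3, 45.9 times that at DN4 and 1055 times that at DP. Its level was thus lower at each later stage. Il2rb had medians of 1346 CPM at DN1, 1.78 at DN2, 2.18 at DN3, 80.2 at DN4 and 2.08 at DP. Its 8 DN4 libraries lay between 16.8 and 96.9 CPM, and the highest DN2 and DN3 values were 7.35 and 7.48 CPM. The share of all genes with DN4 libraries wholly above those of DN2 and DN3 was not counted. As a description only, the Il2rb median was higher at DN4 than at DN2 and DN3. Which cells of the DN4 gate held this RNA was not tested. Zbtb16 was also higher at DN4 than at DN3, with medians of 105 CPM at DN1, 5.09 at DN2, 0.0516 at DN3, 11.2 at DN4 and 0 at DP, though its DN4 libraries (2.97 to 21.6 CPM) overlapped those of DN2 (0 to 8.51 CPM). Fcer1g had medians of 376, 5.08, 1.22, 7.23 and 0.360 CPM from DN1 through DP.

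Gzma did not follow the others. Its +/D medians were 283 CPM at DN1, 108 at DN2, 152 at DN3, 205 at DN4 and 20.4 at DP. The DN4 libraries lay between 152 and 339 CPM, a range that overlaps that of DN1 (149.7 to 343 CPM), and the mean at DN1 was 1.21 times that at DN4 and 12.98 times that at DP. Granzyme A was therefore the one member whose DN1 libraries were not all above those of DN2, DN3 and DN4. Each of the other 9 members had every DN1 library above every DN2, DN3 and DN4 library, and against DP all 10 did. The share of all genes with DN1 libraries wholly above was 14.5% for DN2, 15.8% for DN3, 15.4% for DN4 and 15.6% for DP. Nothing follows from this count, since these levels chose the genes. Klrb1c, Ncr1 and Eomes reached at most 3.36, 3.38 and 1.29 CPM in any +/D library beyond DN1. Tbx21 had +/D medians of 0.300 CPM at DN2, 1.77 at DN3, 4.99 at DN4 and 0.127 at DP, and Ccl5 medians of 4.03, 0.945, 3.43 and 1.25 CPM. The 1 DN2 D/AAA library had 205 CPM of Nkg7 and 229.9 CPM of Gzma, with every other member under 10 CPM.

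Between DN3 and DP the genotypes were compared stage by stage. At DN3, 5 members had enough counts for the fit and 0 were called by edgeR, DESeq2 or limma voom (0% of 12912 genes by edgeR), with 0 members at an unadjusted p under 0.05. Gzma had 138, 217, 179, 173 and 91.0 CPM in the 5 DN3 D/AAA libraries and 85.1, 152 and 254 CPM (lowest, median, highest) in the 8 +/D libraries, a log2 fold change of 0.04 ± 0.22. At DN4, 7 members were in the fit and 0 were called by any of the 3 tools (0.0081% of 12348 genes by edgeR). The nearest was Gzma, with 199, 323 and 382 CPM in D/AAA cells and 152, 205 and 339 CPM in +/D cells (log2 fold change 0.49 ± 0.19, adjusted p = 0.763), the 1 member at an unadjusted p under 0.05. The DN4 groups overlapped for this gene. Il2rb at DN4 had 22.6, 62.3 and 129 CPM in D/AAA cells and 16.8, 80.2 and 96.9 CPM in +/D cells (log2 fold change 0.10 ± 0.43).

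At DP the granzyme and T-bet genes were higher in D/AAA cells in the mean, but the call depended on the test. Gzma had 23.8, 49.2 and 723 CPM (lowest, median, highest) in the 11 DP D/AAA libraries and 14.3, 20.4 and 28.0 CPM in the 7 +/D libraries. All 11 D/AAA libraries lay above the +/D median, and the 2 highest were replicate 1 (723 CPM) and replicate 11 (187 CPM). Tbx21 had 0, 2.39 and 25.3 CPM in D/AAA cells and 0, 0.127 and 0.884 CPM in +/D cells, and replicate 1 was again the highest. The log2 fold changes were 2.73 ± 0.70 for Gzma and 4.25 ± 1.17 for Tbx21, both with an adjusted p of 0.264 in edgeR, so 0 of 6 members in the fit were called (0.00803% of 12451 genes), with 2 at an unadjusted p under 0.05. DESeq2 called both genes higher (68 of 12451 genes called) and limma voom called neither (8 of 12451 genes called). Without D/AAA replicates 1 and 5, a choice made after seeing the data, edgeR also called 0 members. Over DN1, DN3, DN4 and DP, edgeR's test of the interaction of genotype and stage called 0 members, with 5 at an unadjusted p under 0.05, against 0.134% of 16403 genes called. All 10 members were in this fit, Ncr1 and Eomes among them, where the fits of DN3, DN4 and DP alone held 5, 7 and 6, so some passed the low-count filter through their DN1 counts and the count of members says nothing about the list. The lowest adjusted p-values were 0.0523 for Tbx21 and 0.0748 for Gzma. In this test DESeq2 called 2 members (97 of 16403 genes called) and limma voom 0.

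In the unsorted early tumours most members were high again, in 5 of 7 libraries. These levels chose the members and have no test. Ccl5 ran from 0.431 (lowest) over 2189 (median) to 3438 CPM (highest) and Nkg7 from 60.0 over 2551 to 3096 CPM. The low values were those of replicates 2 and 3, without which the medians were 3029 CPM for Ccl5 and 2842 CPM for Nkg7. Klrb1c had 0, 419 and 685 CPM, Il2rb 2.37, 719 and 1446 CPM, and Fcer1g 3.23, 297 and 392 CPM. Tbx21 had 0.215, 183 and 365 CPM, Zbtb16 0, 40.2 and 71.3 CPM, Ncr1 0, 56.4 and 295 CPM, and Eomes 0, 5.54 and 22.2 CPM. For each of these 9 members the 2 lowest values were those of replicates 2 and 3, and the medians without them were 482 (Klrb1c), 839 (Il2rb), 299.5 (Fcer1g), 262 (Tbx21), 41.5 (Zbtb16), 69.0 (Ncr1) and 9.95 CPM (Eomes). Gzma again stood apart, with 332 CPM in replicate 2 and 374 CPM in replicate 3, inside the range of 116 to 577 CPM of the other 5.

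NK, dendritic, B cell and myeloid markers moved with the members in these tumours. The 5 libraries with high member levels had summed NK markers between 1222 and 2592 CPM and summed dendritic markers between 2074 and 6669 CPM, against 3.02 and 6.62 CPM of NK and 158 and 184 CPM of dendritic markers in replicates 2 and 3. Their summed B cell markers lay between 278 and 1790.3 CPM, against 28.0 and 21.8 CPM in replicates 2 and 3, and their myeloid markers between 282 and 2405 CPM, against 25.0 and 7.06 CPM. DP markers ran the other way, between 63.5 and 249 CPM in the 5 libraries and at 2551 and 1516 CPM in replicates 2 and 3. Replicate 2 also had 2049.5 CPM of DN3 markers, and replicate 3 had 23292 CPM of red cell markers. In +/D DN1 cells the same lists had medians of 2149 (NK), 7860.1 (dendritic), 1503 (B cell), 937 (myeloid) and 159 CPM (DP). By these markers the 5 libraries lay with DN1 cells rather than with DP cells. Other lists did not separate them from replicates 2 and 3. Summed γδ T cell markers had 2325 and 1342 CPM in replicates 2 and 3, against 1114 to 1597 CPM in the 5 libraries. Mature αβ T cell markers overlapped, with 522 and 750 CPM against 720 to 1241 CPM. The part of other cells in the member levels was not tested.

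**Figure D2:**
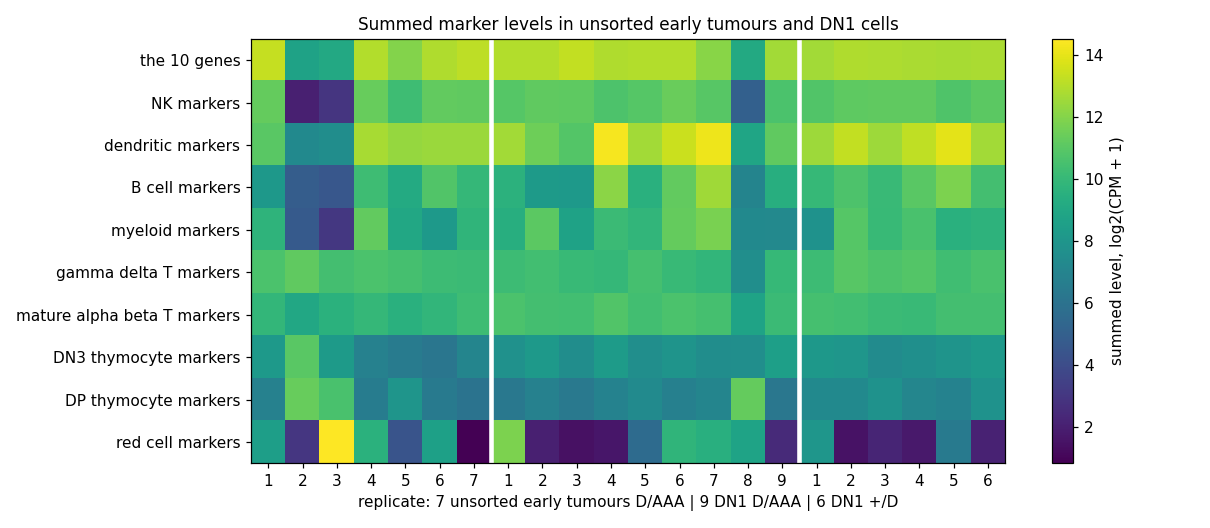
Heat map of summed marker levels, as log2(CPM + 1), for the members and the marker lists (rows) in the 7 unsorted early tumours, 9 DN1 D/AAA libraries and 6 DN1 +/D libraries (columns by replicate). Unsorted replicates 2 and 3 are low for NK markers (3.02 and 6.62 CPM) and high for DP markers (2551 and 1516 CPM), and DN1 D/AAA replicate 8 is high for DP markers (2503 CPM).

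Early tumours sorted as DP did not carry the DN1 profile. Eomes and Ncr1 were at 0 in all 5, Zbtb16 was at 0.225 CPM in replicate 1 and 0 in the others, and summed NK markers had a median of 11.5 CPM. Gzma was the member with a high level, at 45.2, 487, 1956, 556 and 422 CPM in replicates 1 to 5, against 23.8, 49.2 and 723 CPM (lowest, median, highest) in the 11 DP D/AAA libraries. Il2rb had 2.93, 15.6, 32.8, 17.3 and 21.3 CPM in the early tumours, against 1.40, 3.39 and 20.2 CPM in DP D/AAA cells. For both genes replicate 1 was low among the tumours and the other 4 lay above the DP median, with overlap between the groups. The log2 fold changes were 2.46 ± 0.79 for Gzma (adjusted p = 0.111), 1.77 ± 0.57 for Il2rb (adjusted p = 0.105) and 1.95 ± 0.79 for Fcer1g (adjusted p = 0.160). By edgeR 0 of 7 members in the fit were called, against 0% of 12245 genes, with 3 members at an unadjusted p under 0.05. The call turned on the setting: DESeq2 and limma voom each called Il2rb and Gzma higher, as did edgeR without early tumour replicate 1. These fits also called many other genes, in all 855 and 2125 of 12245 and 1549 of 12560 genes. The same 2 were called without DP D/AAA replicates 1 and 5 and in libraries numbered above 56 alone, both chosen after seeing the data. There 1723 of 11930 and 736 of 11414 genes were called. Nkg7 stayed at 6.98, 1.5, 1.3, 5.49 and 5.08 CPM in the early tumours, against 0.705, 2.33 and 10.5 CPM in DP D/AAA cells.

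In whole non-tumoral thymus the members were low. Il2rb had 15.47, 129.5 and 288 CPM (lowest, median, highest) in the 9 D/AAA thymuses and 51.1, 64.3 and 96.9 CPM in the 6 +/D thymuses. Nkg7 had 3.49, 35.6 and 58.1 CPM in D/AAA thymus and 15.4, 18.01 and 23.97 CPM in +/D thymus, and Ccl5 7.74, 27.7 and 60.3 CPM in D/AAA thymus and 6.98, 15.6 and 34.7 CPM in +/D thymus. The medians were higher in D/AAA thymus for these 3 genes, and the groups overlapped. Gzma had 8.90, 18.5 and 182 CPM in D/AAA thymus and 9.05, 13.6 and 17.8 CPM in +/D thymus. The D/AAA thymuses fell into 5 libraries up to 18.5 CPM and 4 libraries between 120 and 182 CPM. By edgeR 0 of 8 members in the fit were called (0% of 11044 genes), with 2 at an unadjusted p under 0.05, namely Gzma (log2 fold change 2.46 ± 0.73, adjusted p = 0.450) and Il2rb (0.89 ± 0.42, adjusted p = 0.606). DESeq2 called Gzma higher (49 of 11044 genes called), and limma voom called 0 members. Klrb1c had 0, 4.8 and 13.7 CPM in D/AAA thymus and 0.245, 3.30 and 6.37 CPM in +/D thymus, and the median of Eomes and of Ncr1 was 0 in both. The thymus libraries with MYCChr6 are given as values, without a test. Il2rb had 93.9, 151 and 103 CPM in the 3 D/AAA MYCChr6 thymuses and 54.0 and 58.5 CPM in the 2 +/D MYCChr6 thymuses, and Gzma 286, 29.6 and 26.0 CPM in the 3 D/AAA and 29.3 and 17.3 CPM in the 2 +/D thymuses.

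In established RERT2 D/AAA tumours the chemokine, granule and IL-15 receptor genes fell, while Gzma was called higher against one kind of thymus and not called against the other. Ccl5 had 0, 1.01 and 7.61 CPM (lowest, median, highest) in the 22 tumours and 7.74, 27.7 and 60.3 CPM in the 9 D/AAA thymuses, and the groups did not overlap, as for 0.163% of 13468 genes in this direction. Nkg7 had 0, 0.612 and 16.7 CPM in tumours, 9 of 22 being at 0, and 3.49, 35.6 and 58.1 CPM in D/AAA thymus. Il2rb had 0.184, 11.98 and 52.7 CPM in tumours and 15.47, 129.5 and 288 CPM in D/AAA thymus. All 22 tumours lay below the D/AAA thymus median for each of the 3 genes. Gzma had 14.7, 89.7 and 579 CPM in tumours, against 8.90, 18.5 and 182 CPM in D/AAA thymus and 9.05, 13.6 and 17.8 CPM in +/D thymus. The tumours thus had Gzma RNA with Nkg7 and Ccl5 at or near 0. Eomes was at 0 in 18 of 22 tumours, Klrb1c and Ncr1 in 21 each, and Zbtb16 in 11, with a highest value of 26.5 CPM.

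Against D/AAA thymus, edgeR called 3 of 7 members in the fit, all lower, where 34.9% of 11634 genes were called (18.1% higher and 16.8% lower). Ccl5 and Nkg7, near 0 in most tumours, passed the low-count filter through their counts in thymus. The count of members therefore says nothing about the list. The log2 fold change was -4.16 ± 0.46 for Ccl5 (SE, adjusted p = 9.78e-08), -3.54 ± 0.73 for Nkg7 (adjusted p = 0.000366) and -3.31 ± 0.50 for Il2rb (adjusted p = 1.31e-05). Gzma had a log2 fold change of 0.97 ± 0.60 (adjusted p = 0.215) and Fcer1g, with 2.51, 6.24 and 74.4 CPM in tumours and 0.499, 5.63 and 9.89 CPM in D/AAA thymus, one of 0.87 ± 0.47 (adjusted p = 0.151). The median log2 fold change was -0.03 over the 7 members and 0.04 over all genes tested. Against +/D thymus, which shares the 22 tumours, 4 of 7 members were called, 1 higher and 3 lower, where 41.5% of 12381 genes were called (22.4% higher and 19.1% lower). Here it was -3.39 ± 0.53 for Ccl5 (adjusted p = 6.04e-06), -2.80 ± 0.85 for Nkg7 (adjusted p = 0.00882) and -2.42 ± 0.54 for Il2rb (adjusted p = 0.000711). Gzma rose, with a log2 fold change of 3.44 ± 0.73 (adjusted p = 0.000435) and all 22 tumours above the +/D thymus median. Tbx21 had 0, 12.3 and 47.6 CPM in tumours, 2.11, 7.24 and 22.03 CPM in D/AAA thymus and 0, 8.05 and 16.6 CPM in +/D thymus, and was called in neither comparison. Klrb1c and Ncr1 entered the D/AAA comparison when no low-count filter was used and were then called lower, where 5237 of 34671 genes were called.

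**Figure D3:**
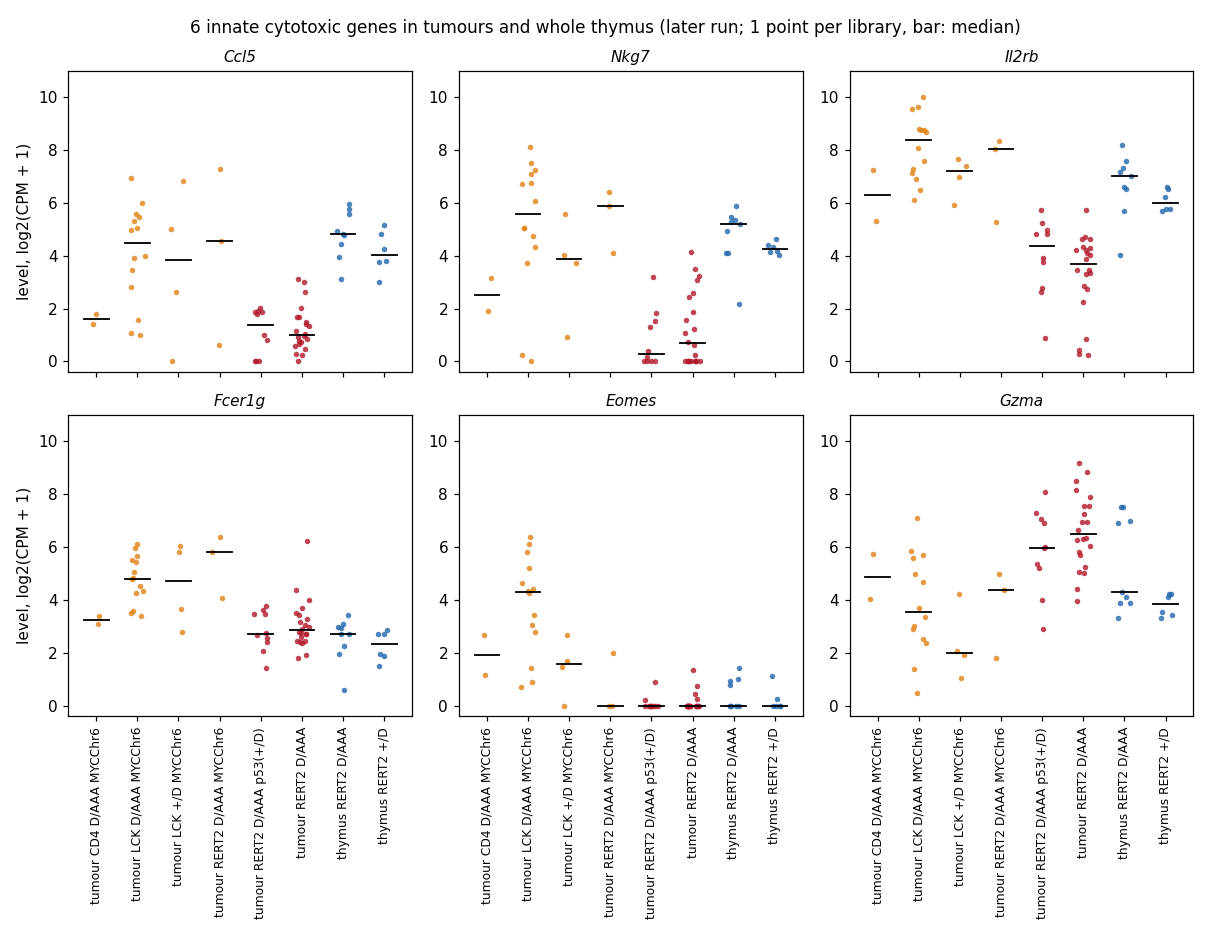
Level of Ccl5, Nkg7, Il2rb, Fcer1g, Eomes and Gzma in tumours and whole thymus of the later run, as log2(CPM + 1) on the vertical axis, by group on the horizontal axis, with 1 point per library and a bar at each group median. RERT2 D/AAA tumours are low for Ccl5, Nkg7 and Il2rb (medians 1.01, 0.612 and 11.98 CPM) and high for Gzma (89.7 CPM), and LCK D/AAA MYCChr6 tumours are the reverse.

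Among genes with the same roles, from lists that hold none of the members, calls were more often lower than higher in each list, where 16.8% of all genes tested fell and 18.1% rose. Against D/AAA thymus, 9 of 14 cytokine receptor and signalling genes in the fit fell and 0 rose, among them the IL-18 receptor chains Il18r1 (log2 fold change -3.92 ± 0.81) and Il18rap (-3.60 ± 0.79), Stat4 (-2.54 ± 0.83) and Il15ra (-1.49 ± 0.50). Of 6 NK receptor and adaptor genes in the fit out of 19, 3 fell and 0 rose, namely the receptor Cd226 (-4.26 ± 0.59), the adaptor Hcst (-1.13 ± 0.31) and Cd96 (-0.96 ± 0.29). Of 12 NKT development genes in the fit out of 15, 5 fell and 0 rose, with Egr2 (-4.61 ± 0.71), Icos (-2.86 ± 0.69), Cxcr6 (-2.59 ± 0.63) and Slamf1 (-1.58 ± 0.28) the 4 of greatest size. The protease gene Ctsw (-3.36 ± 0.48) was the 1 of 6 granule genes that fell, a share near that of all genes. Of the cytokine and chemokine list 1 of 2 genes in the fit fell, the chemokine receptor gene Ccr7 (-4.65 ± 0.49). Ccr7 is also in the list of mature αβ T cell markers. Among 11 transcription factor genes, Nfil3, which NK cell development needs, rose (2.30 ± 0.54) and 4 fell, among them Ets1 (-0.70 ± 0.14) and Bcl11b (-0.63 ± 0.15). Markers of mature αβ T cells, B cells, red cells and DP thymocytes moved with these genes. The summed mature T cell level had a median of 160.5 CPM in the tumours, 773 CPM in D/AAA thymus and 765 CPM in +/D thymus, and 6 of its 7 genes were called lower against D/AAA thymus and 5 of 7 against +/D thymus. Of the B cell markers in the fit, 4 of 5 were called lower against D/AAA thymus and 4 of 6 against +/D thymus, with summed medians of 8.66 CPM in tumours, 76.2 CPM in D/AAA thymus and 64.1 CPM in +/D thymus. Of the DP markers, 6 of 9 were called lower against D/AAA thymus and 9 of 9 against +/D thymus, with summed medians of 1209 CPM in tumours, 2654 CPM in D/AAA thymus and 4064 CPM in +/D thymus. Red cell markers were called lower in 5 of 5 against D/AAA thymus and in 0 of 4 against +/D thymus. Some lists ran the other way against +/D thymus, where 22.4% of all genes tested rose. There 3 of 6 DN3, 2 of 8 γδ T cell (a share near that of all genes) and 3 of 8 myeloid markers were called higher and 0 lower. Against D/AAA thymus 0 of 6, 0 of 7 and 1 of 5 were called higher and 0 lower. The part of these cells in the result was not tested.

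Against +/D thymus the same lists had 7 of 13 cytokine receptor genes lower and 1 higher (Il12rb2, 2.42 ± 0.84), 3 of 7 NK receptor genes lower and 1 higher (Fcgr3, 2.77 ± 0.80), 5 of 12 NKT development genes lower and 1 higher (Plac8, 1.47 ± 0.56), 2 of 6 granule genes lower, and 5 of 11 transcription factor genes lower and 1 higher (Nfil3, 2.78 ± 0.70). Log2 fold changes here were -4.47 ± 0.65 for Cd226, -3.69 ± 0.91 for Il18r1, -4.89 ± 0.77 for Egr2 and -2.89 ± 0.54 for Ctsw. Both comparisons share the tumours. Fcgr3 encodes an Fc receptor of NK and myeloid cells, and myeloid markers had a summed median of 68.3 CPM in tumours, 33.5 CPM in D/AAA thymus and 40.6 CPM in +/D thymus.

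Between tumours with and without p53(+/D) no member was called. Gzma had 6.56, 62.3 and 273 CPM (lowest, median, highest) in the 10 p53(+/D) tumours and 14.7, 89.7 and 579 CPM in the 22 RERT2 D/AAA tumours, a log2 fold change of -0.74 ± 0.55. Il2rb had 0.826, 20.5 and 52.3 CPM in p53(+/D) tumours and 0.184, 11.98 and 52.7 CPM without, a log2 fold change of 0.64 ± 0.55. Ccl5 reached 3.05 CPM and Nkg7 8.18 CPM at most in p53(+/D) tumours. The groups overlapped for each, and 0 of 7 members in the fit were called by edgeR, DESeq2 or limma voom, with 0 at an unadjusted p under 0.05, against 1.29% of 11453 genes called by edgeR (0.742% higher and 0.55% lower). The intervals are wide, so the test does not show that the groups are alike. Of the role lists 1 gene was called, the shared cytokine receptor chain Il2rg (-0.46 ± 0.12, adjusted p = 0.0487). The p53(-/-) tumour had 122 CPM of Gzma and 9.91 CPM of Il2rb.

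In RERT2 and LCK D/AAA tumours with MYCChr6, Ccl5, Nkg7, Il2rb and Fcer1g were higher than in RERT2 D/AAA tumours without it. The 3 RERT2 D/AAA MYCChr6 tumours had 0.543, 22.5 and 156 CPM of Ccl5, 57.2, 16.2 and 84.6 CPM of Nkg7 and 324, 38.2 and 265 CPM of Il2rb in replicates 1 to 3. Fcer1g had 55.1, 16.01 and 81.6 CPM in these 3, against 2.51, 6.24 and 74.4 CPM (lowest, median, highest) in RERT2 D/AAA tumours without MYCChr6. Replicate 2 was the lowest of the 3 for Nkg7, Il2rb and Fcer1g, and replicate 1 for Ccl5. By edgeR 4 of 7 members in the fit were called, all higher, where 9.23% of 13708 genes were called (5.65% higher and 3.57% lower). The log2 fold changes were 5.06 ± 0.72 for Ccl5 (adjusted p = 2.81e-05), 4.27 ± 1.03 for Nkg7 (adjusted p = 0.00815), 3.96 ± 0.69 for Il2rb (adjusted p = 0.000388) and 2.30 ± 0.60 for Fcer1g (adjusted p = 0.0133). Gzma, with 30.6, 2.46 and 19.6 CPM against 14.7, 89.7 and 579 CPM, had a log2 fold change of -3.09 ± 1.10 and was not called by edgeR (adjusted p = 0.0787). Zbtb16 had 121, 0 and 7.07 CPM in the 3 tumours (log2 fold change 3.50 ± 1.303, adjusted p = 0.0954). The count rests on few libraries, since without replicate 3 Il2rb was the 1 member called, and without replicate 1 Fcer1g was no longer called (log2 fold change 2.24, adjusted p = 0.0591). DESeq2 called Ccl5, Il2rb and Fcer1g higher and Gzma lower, and did not call Nkg7 (adjusted p = 0.0808), with 1586 of 13708 genes called.

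The 14 LCK D/AAA MYCChr6 tumours gave the larger comparison, in which driver and MYCChr6 differ together from the 22 RERT2 D/AAA tumours and cannot be told apart. Il2rb had 68.5, 339 and 1038 CPM (lowest, median, highest) in LCK tumours and 0.184, 11.98 and 52.7 CPM in RERT2 tumours, and the groups did not overlap, as for 0.185% of 14043 genes in this direction. Nkg7 had 0, 49.2 and 277 CPM in LCK tumours and 0, 0.612 and 16.7 CPM in RERT2 tumours, and Ccl5 1.01, 22.7 and 123 CPM in LCK tumours and 0, 1.01 and 7.61 CPM in RERT2 tumours. Fcer1g had 9.39, 27.1 and 68.4 CPM in LCK tumours and 2.51, 6.24 and 74.4 CPM in RERT2 tumours. Of the 14 LCK tumours, 14 lay above the RERT2 median for Il2rb and Fcer1g, 13 for Ccl5 and 12 for Nkg7. Gzma ran the other way, with 0.386, 10.6 and 137 CPM in LCK tumours and 14.7, 89.7 and 579 CPM in RERT2 tumours, and 13 of 14 lay below the RERT2 median. By edgeR 5 of 7 members in the fit were called, 4 higher and 1 lower, where 35.3% of 11130 genes were called (18.6% higher and 16.7% lower). Ccl5 and Nkg7, near 0 in most RERT2 tumours, passed the low-count filter through their counts in LCK tumours. The count of members therefore says nothing about the list. The log2 fold changes were 4.88 ± 0.75 for Nkg7 (adjusted p = 4.25e-06), 4.81 ± 0.50 for Il2rb (adjusted p = 4.25e-09), 4.06 ± 0.55 for Ccl5 (adjusted p = 4.39e-07) and 1.61 ± 0.37 for Fcer1g (adjusted p = 0.000780). Gzma fell by 2.41 ± 0.59 (adjusted p = 0.00166). The median log2 fold change was 1.61 over the 7 members and 0.00 over all genes tested.

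Eomes had a higher median in LCK tumours as well, at a lower level and with overlap between the groups. It had 0.652, 18.9 and 82.3 CPM in the 14 LCK D/AAA MYCChr6 tumours and 0, 0 and 1.54 CPM in the 22 RERT2 D/AAA tumours, 18 of them at 0. It did not pass the low-count filter of this comparison, and was called higher with no filter, together with Klrb1c and Ncr1, which stayed at 10.7 and 3.04 CPM at most. With no filter 7669 of 34523 genes were called. Tbx21 had 0.193, 13.7 and 111 CPM in LCK tumours and 0, 12.3 and 47.6 CPM in RERT2 tumours (log2 fold change 1.05 ± 0.60, adjusted p = 0.179). Zbtb16 had 0, 2.26 and 30.3 CPM in LCK tumours and 0, 0.110 and 26.5 CPM in RERT2 tumours. Of the T-box factors, Tbx21 was thus found in both kinds of tumour and Eomes mostly in one. The 2 CD4 D/AAA MYCChr6 tumours had 38.6 and 153 CPM of Il2rb, 5.31 and 1.22 CPM of Eomes, 0.886 and 31.9 CPM of Zbtb16 and 52.0 and 15.3 CPM of Gzma. They had 1.64 and 2.44 CPM of Ccl5, 7.84 and 2.71 CPM of Nkg7 and 9.49 and 7.46 CPM of Fcer1g, each inside the range of the RERT2 D/AAA tumours.

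**Figure D4:**
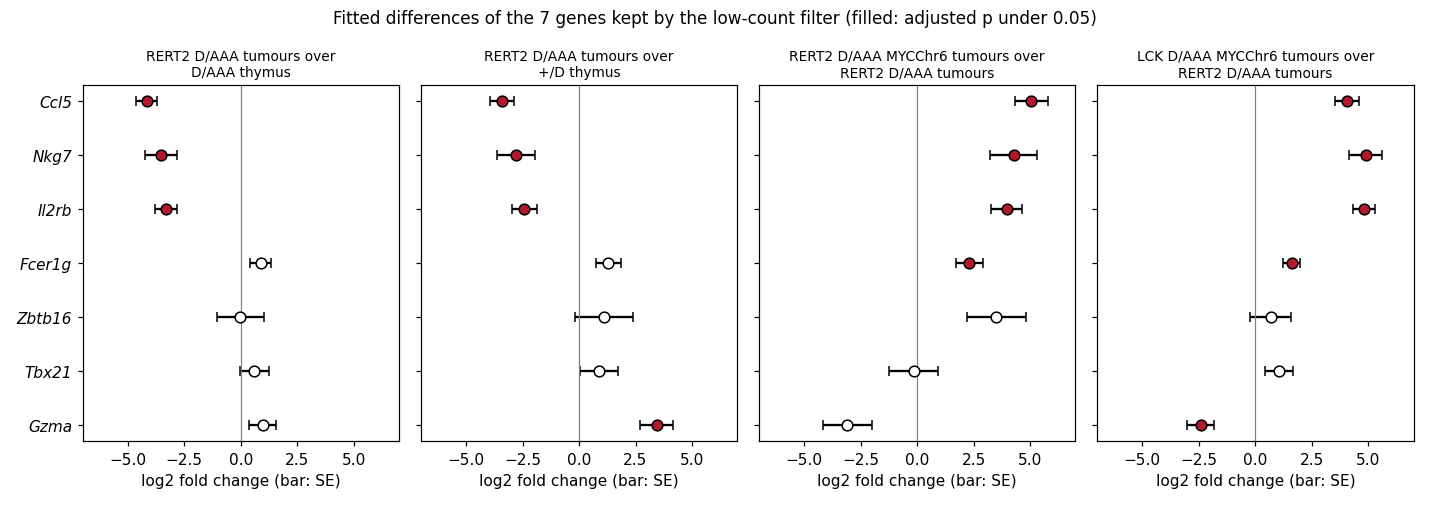
Log2 fold change (horizontal axis, bars ± SE) of 7 members (vertical axis) in 4 tumour comparisons, with filled points where the adjusted p was under 0.05. Ccl5, Nkg7 and Il2rb are negative against both kinds of thymus and positive in MYCChr6 tumours, and Gzma is positive against +/D thymus (3.44) and negative in LCK D/AAA MYCChr6 tumours (-2.41).

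Genes of the role lists moved in the LCK comparison in both directions, where 18.6% of all genes rose and 16.7% fell. Of 12 NKT development genes in the fit 7 rose and 3 fell, with the chemokine receptor Cxcr3 (4.18 ± 0.64) and Plac8 (3.37 ± 0.48) highest and Slamf1 (-3.30 ± 0.58) lowest. Of 5 NK receptor genes 3 rose and 1 fell, namely Cd160 (2.17 ± 0.34), the adaptors Tyrobp (1.64 ± 0.35) and Hcst (1.62 ± 0.28), and Cd96 (-1.19 ± 0.46). Ctsw (3.36 ± 0.47), the granule proteoglycan Srgn (1.60 ± 0.34) and the granzyme-activating protease Ctsc (1.40 ± 0.17) rose among 6 granule genes. Both of the 2 genes in the fit from the cytokine and chemokine list rose, Tnf (1.75 ± 0.46) and Ccr7 (2.79 ± 0.44). Ccr7, a chemokine receptor gene, is also in the list of mature αβ T cell markers. Of 12 cytokine receptor genes 2 rose and 3 fell, shares near those of all genes, with Il12rb2 (-3.16 ± 0.67) and Il12rb1 (-1.57 ± 0.23) falling most. Of 11 transcription factor genes 3 rose and 5 fell, with Prdm1 (4.50 ± 0.78) and Runx3 (1.73 ± 0.44) higher and Bcl11b (-1.37 ± 0.23) lower. In RERT2 MYCChr6 tumours, compared with the same 22 tumours, Ctsw (3.68 ± 0.69), Srgn (2.15 ± 0.51), Ctsc (1.63 ± 0.27), Prdm1 (5.08 ± 1.19), Plac8 (4.03 ± 0.55) and Egr2 (4.17 ± 1.06) also rose, and Slamf1 (-2.90 ± 0.68) and Bcl11b (-1.82 ± 0.35) fell. In this comparison 0 of 7 NK receptor genes were called, and of 13 cytokine receptor genes 1 was, the kinase gene Jak3 (1.36 ± 0.35).

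B cell, dendritic, myeloid and mature T cell markers moved with the members in MYCChr6 tumours, most of them in the LCK comparison. Summed B cell markers had medians of 58.0 CPM in LCK D/AAA MYCChr6 tumours and 263 CPM in RERT2 D/AAA MYCChr6 tumours, against 8.66 CPM in RERT2 D/AAA tumours. Summed myeloid markers had medians of 417 CPM in LCK and 172 CPM in RERT2 MYCChr6 tumours, against 68.3 CPM in RERT2 D/AAA tumours, and summed dendritic markers 468 and 945 CPM, against 187 CPM. Of the markers in the LCK fit, 5 of 5 B cell, 5 of 6 dendritic, 6 of 8 myeloid and 4 of 6 mature T cell genes rose. In the RERT2 MYCChr6 fit 6 of 7, 3 of 8, 2 of 10 and 2 of 7 rose, where 5.65% of all genes did. Thymocyte markers ran the other way, with 5 of 6 DN3 and 4 of 9 DP genes called lower in LCK tumours and 4 of 6 and 5 of 9 in RERT2 MYCChr6 tumours. Of γδ T cell markers 2 of 7 fell and 0 rose in LCK tumours. In RERT2 MYCChr6 tumours 1 of 8 γδ T cell markers rose and 0 fell. Summed DN3 markers had medians of 84.1 CPM in LCK and 38.8 CPM in RERT2 MYCChr6 tumours, against 1949 CPM in RERT2 D/AAA tumours, and summed DP markers 357 and 287 CPM, against 1209 CPM. Summed NK markers had medians of 43.1 CPM in LCK and 18.8 CPM in RERT2 MYCChr6 tumours, against 12.9 CPM in RERT2 D/AAA tumours, far below the 2149 CPM of +/D DN1 cells in the earlier run, with which no test was made. The part of these cells in the rise of Ccl5, Nkg7, Il2rb and Fcer1g was not tested.

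Between the genotypes of LCK MYCChr6 tumours no member was called. Eomes had 0.652, 18.9 and 82.3 CPM (lowest, median, highest) in the 14 D/AAA tumours and 1.74, 5.35, 2.25 and 0 CPM in the 4 +/D tumours, a log2 fold change of 3.40 ± 1.24 (adjusted p = 0.942). Il2rb had 68.5, 339 and 1038 CPM in D/AAA tumours and 125, 59.9, 202 and 167 CPM in +/D tumours, a log2 fold change of 1.46 ± 0.65 (adjusted p = 0.966). Nkg7 had 0, 49.2 and 277 CPM in D/AAA tumours and 47.1, 15.2, 12.4 and 0.906 CPM in +/D tumours, and Ccl5 1.01, 22.7 and 123 CPM in D/AAA tumours and 113, 31.3, 5.25 and 0 CPM in +/D tumours. The groups overlapped for each of these genes. By edgeR 0 of 8 members in the fit were called (0% of 12791 genes), with 2 at an unadjusted p under 0.05, and DESeq2 and limma voom also called 0 members. A fit with 4 tumours on one side has wide intervals, so these values do not show that the genotypes are alike.

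Within the 22 RERT2 D/AAA tumours, 1 relation passed the test. Of 19 relations (each member with summed myeloid markers and the other 9 members with Nkg7, on log2(CPM + 1)), only Fcer1g with myeloid markers was called, with Pearson's r of 0.731 (permutation p = 6e-05, adjusted p = 0.00114) and Spearman's rho of 0.713 (permutation p = 0.00028, adjusted p = 0.00532). Without the 2 tumours farthest from the median of the myeloid sum, r was 0.617. The tumour with the highest sum, replicate 1, had 210.1 CPM of myeloid markers and 74.4 CPM of Fcer1g. Gzma had an r of -0.114 and a rho of -0.224 with the myeloid markers, and with Nkg7 an r of 0.331 (adjusted p = 0.516) and a rho of 0.281 (adjusted p = 0.642). None of the other 9 members was called in relation to Nkg7. Of the 22 tumours, Nkg7 was at 0 in 9, Zbtb16 in 11, Eomes in 18 and Klrb1c and Ncr1 in 21 each. Relations of these genes could hardly pass, so the result does not show that the members vary apart.

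**Figure D5:**
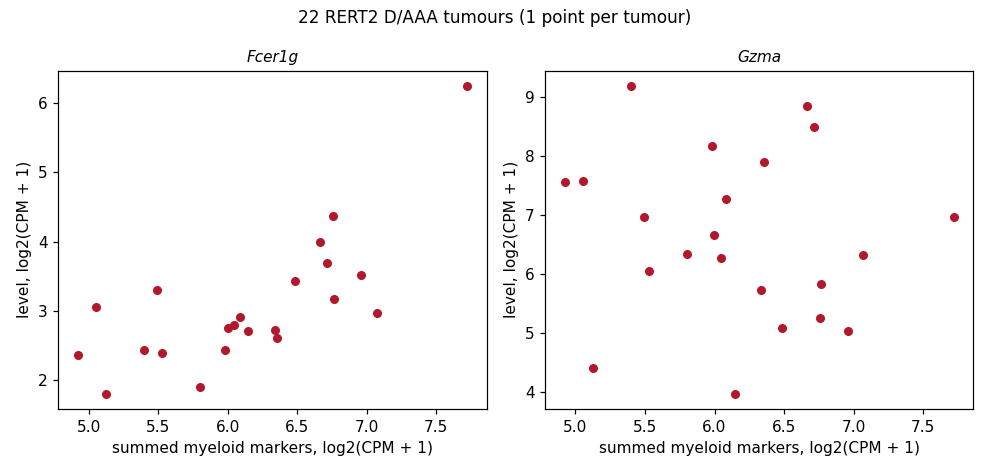
Level of Fcer1g and of Gzma (vertical axes, log2(CPM + 1)) against summed myeloid markers (horizontal axes, log2(CPM + 1)) in the 22 RERT2 D/AAA tumours, with 1 point per tumour. Fcer1g is higher where the myeloid sum is higher (Pearson's r = 0.731), and Gzma has an r of -0.114.

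The genes with a pattern most like the 10 members over all 81 libraries of the earlier run were Lcp1 (Spearman's rho of 0.905 with the mean z-score of the members), Klhdc2 (0.903), S100a4 (0.899), Atp1b3 (0.894), Cd160 (0.890), Samhd1 (0.889), Enpp1 (0.888) and Ctsw (0.887), out of 12888 genes. Cd160, an NK cell receptor, and Ctsw, a protease of NK and T cells, belong to the role lists. Over the 76 libraries of the later run they were S100a6 (0.857), H2-Q7 (0.825), Gm8995 (0.816), S100a11 (0.796), H2-Q6 (0.792), S100a4 (0.787), AW112010 (0.782) and H2-K1 (0.780), out of 11701 genes. S100a4 was the 1 gene in both sets of 8. Libraries of 1 group share tissue and genotype, and libraries differ in depth, so the rho values are a description.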

How the data were processed

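Per the labels' protocols, RNA of sorted thymocytes or lymphoma cells was prepared with an RNeasy Plus Mini kit and read on a HiSeq2000. Per the submitters' processing notes, FastQC, STAR 2.5.3a and RSEM 1.3.0 were used with the mouse genome GRCm38 (mm10). The values in the tables deposited by the authors, 1 for each run, are expected counts per gene, and they were rounded to whole numbers before testing. For strandedness and annotation release, nothing is given in the sources used here. Symbols were matched for 50376 of 50686 genes with GENCODE M21.

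Groups followed the labels. The members, gene lists and tests were chosen with earlier results of these data known. CPM used TMM-scaled totals of all libraries of a run. Groups were compared with edgeR 4.0.16 (filterByExpr, TMM, robust quasi-likelihood F-test, 2-sided, R 4.3.3), with Benjamini-Hochberg adjustment over all genes tested and a threshold of 0.05. The SE after ± was derived from the fold change and its F statistic. The interaction of genotype and stage covered DN1, DN3, DN4 and DP. Groups of 1 or 2 libraries and the thymus with MYCChr6 had no test. Correlations used 100000 permutations, 2-sided. From each role or marker list up to 4 called genes with the largest absolute log2 fold change were eligible to be named, and per run the 8 genes most like the members. The values of 1 list gene are not reported here. Each comparison of 2 groups was also fitted to simulated counts with known changes. Changes of 4-fold were called in 38.5% (LCK genotype) to 89.2% (LCK MYCChr6 tumours) of cases. Changes of 2-fold were called in 3.3% (LCK genotype) to 63.2% (p53 tumours) of cases. Fits were repeated with DESeq2 1.42.0, with factors from relative log expression, with all genes in place of the low-count filter, and with limma 3.58.1 voom and sample quality weights. Further alternatives were totals without CT010467.1, shallow libraries left out, 1 library at a time left out of groups with at most 5, libraries numbered up to 56 and 1 fit of all libraries of a run. Fits without DP D/AAA replicates 1 and 5, in libraries numbered above 56 alone or without the tumour of highest myeloid markers, and levels without unsorted early tumour replicates 2 and 3, were added after seeing the data. Tables and figures were made in Python 3.11.15 with numpy 2.4.6, pandas 2.3.3, scipy 1.17.1 and matplotlib 3.10.9.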

Additional observations from a re-analysis of the deposited data

Results flagged for a closer look

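In groups of 4 to 10 libraries, 10 of 92 tested sets of values held a library that stood far from the rest of its group. The cut-off gives about 5% of groups by chance if values are normally distributed. CPM need not be, and the same libraries recur over genes, so the count cannot be set against 5%. Only sets with a highest value of at least 5 CPM were tested.

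In early tumours sorted as DP, replicate 3 was far above the other 4 for Gzma (1956 CPM, the next at 556 CPM) and for Fcer1g (17.4 CPM, the next at 5.49 CPM). In LCK +/D MYCChr6 tumours, replicate 4 was above the other 3 for Gzma (17.8 CPM, the next at 3.19 CPM). In p53(+/D) tumours, replicate 5 was above the other 9 for Nkg7 (8.18 CPM, the next at 2.56 CPM).

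In DN1 D/AAA cells, replicate 8, the shallow library, was far below the others for Nkg7 (93.9 CPM, the next at 1434 CPM) and for Tbx21 (0 CPM, the next at 267 CPM). In DN4 D/AAA cells, replicate 3 was high for Fcer1g (24.6 CPM, the next at 10.9 CPM) and replicate 6 for Tbx21 (7.21 CPM, the next at 2.79 CPM). Among controls, Il2rb was high in DN3 +/D replicate 5 (7.48 CPM, the next at 3.39 CPM) and in DP +/D replicate 6 (8.15 CPM, the next at 3.18 CPM).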

How the results depend on the processing

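No paired analysis was possible because the labels give no replicate numbers. The number of members called was within 1.5 times the reported one in 93 of 109 alternatives. It was 2 in place of 0 at DP between genotypes by DESeq2 and in 1 fit of all libraries (Gzma and Tbx21), and 2 in place of 0 in sorted DP early tumours by DESeq2, limma voom, 1 fit of all libraries, and the added fits without DP D/AAA replicates 1 and 5 and with libraries numbered above 56 alone. Leaving out each early tumour in turn gave 0 to 2. It was 1 in thymus between genotypes by DESeq2, 5 against D/AAA thymus with no filter and in 1 fit of all libraries, 8 in LCK MYCChr6 tumours in the same 2 fits, and 2 by DESeq2 and 1 by relative log expression factors for genotype by stage. In RERT2 MYCChr6 tumours, leaving out each in turn gave 1 to 4. No filter and the joint fit test more genes. The other causes were not tested.

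The count of all genes called moved more. By DESeq2 it was 8 (DN1), 13 (DN3), 26 (DN4), 68 (DP), 855 (sorted DP early tumours), 49 (thymus), 361 (p53), 19 (LCK genotype) and 97 (genotype by stage). With no filter it was 2 (DN1), 4 (DN3), 2 (DP), 16 (early tumours), 10 (thymus), 552 (p53), 1979 (RERT2 MYCChr6), 7669 (LCK MYCChr6), 2 (LCK genotype) and 14 (genotype by stage). By limma voom it was 2 (DN3), 8 (DP), 2125 (early tumours), 1 (thymus), 459 (p53) and 836 (RERT2 MYCChr6). In 1 fit of all libraries it was 15 (DN1), 1 (DN3), 118 (DP), 1495 (early tumours), 3 (thymus), 329 (p53), 2021 (RERT2 MYCChr6), 7167 (LCK MYCChr6) and 68 (LCK genotype). Without shallow libraries it was 1 (DN1) and 14 (genotype by stage), and in libraries numbered up to 56 it was 1 (DN1) and 5 (DP). Added fits of early tumours gave 1723 without DP D/AAA replicates 1 and 5 and 736 above number 56. Leaving out 1 library in turn gave 0 to 4 (DN3), 0 to 1549 (early tumours), 669 to 1049 (RERT2 MYCChr6) and 0 in each case (LCK genotype).

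Of the member fold changes under alternatives, 666 kept direction and call, 19 gained a call, 5 lost one and 23 changed sign, all of them uncalled. Log2 values that changed sign were, in libraries numbered up to 56, Il2rb 0.0386, Nkg7 0.0985 and Tbx21 0.14 at DN1, Il2rb -0.0407 at DN4 and Ccl5 -0.12 at DP. Without shallow libraries Tbx21 was 0.0350 at DN1. By limma voom Il2rb was -0.12 at DN4, Fcer1g -0.21 at DP, Tbx21 -0.23 against D/AAA thymus, Zbtb16 -1.37 against +/D thymus, Tbx21 0.42 in p53 tumours, and Zbtb16 0.53 and Ccl5 0.27 between LCK genotypes. Klrb1c was 0.0514 in sorted DP early tumours without DP D/AAA replicates 1 and 5. With 1 library left out in turn, the range was -0.0872 to 0.19 for Gzma at DN3, -0.70 to 0.0864 for Klrb1c in sorted DP early tumours, and -0.0741 to 4.08 for Zbtb16 and -0.93 to 0.39 for Tbx21 in RERT2 MYCChr6 tumours. Between LCK genotypes it was -1.17 to 1.51 for Zbtb16, -0.45 to 0.39 for Fcer1g and -0.72 to 1.297 for Ccl5. Zbtb16 passed the threshold in RERT2 MYCChr6 tumours without the tumour of highest myeloid markers (4.001, adjusted p = 0.0441). Of 680 mean levels, 66 moved by more than 1 SD (in groups of 1 library, by any amount), mostly without CT010467.1 (49 of 230). The 2 correlation counts did not change under 4 alternatives.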
